A study of Homo sapiens with 14 samples.

Results

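Zinc finger genes named ZNF form one of the largest families of human transcription regulators, and 160 of them were well enough expressed in MDA-MB-231 breast cancer cells to be followed from total mRNA into polysomes. Members were the symbols made of ZNF, a number and at most 1 letter that had at least 300 counts in each of the 4 total mRNA libraries. They were 160 of 557 such symbols, in a count table of 58434 symbols of which 8635 reached the same minimum. Of the other 397 ZNF symbols, 53 had no count in any library. The minimum separated near neighbors: ZNF830 and ZNF160 had 300 counts in their lowest total mRNA library and were kept, whereas ZNF28 and ZNF697 had 298 and were not. The members were thus chosen by their total mRNA counts, so total mRNA is described here without a test, and tests are given for polysome mRNA.

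The line is established and of mesenchymal type. Its cells stably carried doxycycline-inducible shRNA, either a non-silencing construct (shNSi) or shRNA against DAP5 (shDAP5), and all cultures received 1 µg/ml doxycycline for 6 days. DAP5, encoded by EIF4G2, is a translation initiation factor related to eIF4G that lacks the part that binds the cap-binding protein eIF4E. RNA was sequenced from 2 cultures per line, as total mRNA, as light polysomes (2 to 3 ribosomes, poorly translated) and as heavy polysomes (4 or more ribosomes, well translated), and in shNSi as a further pool called moderate, in 14 libraries. Neither the labels nor the methods tie an shNSi culture to an shDAP5 culture, so p-values measure only the spread between 2 cultures of a line.

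Most ZNF proteins carry C2H2 zinc fingers, small folds in which 2 cysteines and 2 histidines hold a zinc ion, repeated in tandem so that neighboring fingers read neighboring bases of DNA. Many also carry a KRAB box, which recruits the corepressor TRIM28 and with it the machinery that methylates histone H3 on lysine 9, a route known for silencing retrotransposons. Other ZNF proteins act outside DNA binding, in ribosome assembly, splicing, spindle assembly or actin binding. In polysome profiling the position of an mRNA in the gradient follows the number of ribosomes it carries, and a short coding sequence has room for few of them.

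Sequences of the domains show what the family shares. Coding sequences were taken from GENCODE release 29 (GRCh38), in which 159 members were found by symbol and 157 had a coding sequence. ZNF252P and ZNF271P are annotated as pseudogenes, and ZNF788 was not found. The first finger pattern is printed for the DNA-binding factor ZNF143 (chr11:9460319-9528524, plus strand), which was low in shDAP5 heavy polysomes, for ZNF580 (chr19:55635016-55643469, plus strand), which had the largest rise there, and for ZNF850 (chr19:36714383-36772825, minus strand), a member with 29 fingers. The stretches are coding bases 715 to 783, 280 to 342 and 595 to 657, counted from the start codon. Each is exonic, 5′ to 3′, with the codons of the zinc-binding cysteines and histidines in capitals.
ZNF143: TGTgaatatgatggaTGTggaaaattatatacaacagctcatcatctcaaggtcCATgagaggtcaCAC
ZNF580: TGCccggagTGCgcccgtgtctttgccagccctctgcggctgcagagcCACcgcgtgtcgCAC
ZNF850: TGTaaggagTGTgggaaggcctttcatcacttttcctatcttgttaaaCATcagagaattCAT
The KRAB A box pattern was found in 48 of the 157 coding members. Its stretch is printed for ZNF584 (chr19:58401504-58418327, plus strand), the KRAB pattern member with the largest rise in shDAP5 heavy polysomes, and for ZNF445 (chr3:44431720-44477670, minus strand), which is known to protect imprinted loci. They are coding bases 55 to 93 and 706 to 744, with the codons that the pattern fixes or nearly fixes in capitals.
ZNF584: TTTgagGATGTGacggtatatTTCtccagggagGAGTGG
ZNF445: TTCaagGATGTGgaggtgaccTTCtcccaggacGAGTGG
The pattern misses some KRAB proteins, so its absence says nothing of a member. Of the 48 members with it, 27 lie on chromosome 19, the home of the large human KRAB clusters, where 55 members lie in all.

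The libraries held 25899838 to 30795910 counts, of which the members took 0.404% to 0.706%. EIF4G2 had 1486 and 1431 TMM-normalized CPM (counts scaled to a fixed library total) in shNSi total mRNA and 572 and 782 CPM in shDAP5, with no overlap. The mesenchymal markers VIM, CD44 and AXL had at least 3378 counts in every library, and of the markers such a line lacks, PGR was at 0, ESR1, CDH1 and PTPRC were at 16 counts or fewer, and EPCAM was at 76 to 169. The shDAP5 light libraries are titled light but carry the code that marks the moderate pool in shNSi, and the shDAP5 total libraries are titled total_polysome. They were taken as light and as total mRNA by these titles. Counts say how a library divides its reads, and no added RNA standard is described, so every difference is relative to the other genes of the library. In bulk libraries fewer cells and less RNA per cell cannot be told apart.

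How ZNF mRNAs lie in the gradient of control cells was asked first. In shNSi, 81 of the 160 members differed between heavy and light polysomes, 49 lower and 32 higher in heavy, by edgeR's quasi-likelihood test at an adjusted p under 0.05 (Benjamini-Hochberg over all genes). Of all 16051 genes tested 64.4% were called (32.8% lower and 31.7% higher), beside 50.6% of the members. The median log2 heavy to light ratio was -0.25 over the members and -0.15 over all genes. With library size in place of TMM 84 were lower and 19 higher, with 67.5% of all genes called. The medians were then -0.69 over the members and -0.60 over all genes. Named genes at each end are given with their level in each culture (CPM, normalized over the 10 polysome libraries).

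The 8 members highest in heavy polysomes have differing roles. ZNF207 (BuGZ, a microtubule-binding protein that loads the checkpoint protein BUB3 on kinetochores) had 42.4 and 67.5 CPM in light, 87.9 and 188 CPM in moderate and 289.8 and 259 CPM in heavy polysomes of the 2 shNSi cultures (log2 change 2.40 ± 0.34, adjusted p = 1.84e-11, heavy against light). Its level was lowest in light and highest in heavy in both cultures. ZNF185, an actin-associated protein with a LIM domain and no match to the C2H2 pattern, rose from 38.5 and 36.7 CPM in light to 239 and 159.7 CPM in heavy (log2 change 2.40 ± 0.31, adjusted p = 5.55e-13). ZNF143, a transcription factor of promoters including those of small nuclear RNA genes, had 12.3 and 13.5 CPM in light and 54.5 and 66.4 CPM in heavy (log2 change 2.21 ± 0.30, adjusted p = 1.88e-12). The heavy and light levels of these genes did not overlap. ZNF106, an RNA-binding protein, had 30.7 and 22.2 CPM in light and 103 and 138 CPM in heavy (log2 change 2.18 ± 0.30, adjusted p = 7.02e-12). ZNF326, a subunit of the DBIRD complex that couples RNA polymerase II elongation to splicing, had 27.4 and 27.7 CPM in light and 83.7 and 127 CPM in heavy (log2 change 1.86 ± 0.30, adjusted p = 2.67e-09). ZNF622, which helps mature the 60S ribosomal subunit in the cytoplasm, had 23 and 37.4 CPM and 92.4 and 104 CPM (log2 change 1.77 ± 0.29, adjusted p = 1.28e-08). ZNF316, a KRAB pattern member, and ZNF512 completed the 8 highest with log2 changes of 1.91 ± 0.30 and 1.76 ± 0.29. 72.6% of the coding 50-mers of ZNF512 and 27.5% of those of ZNF207 also occur in another gene, so their counts are uncertain.

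The 8 members lowest in heavy polysomes all had coding sequences under 1000 nt. ZNF593, a factor that travels with the 60S precursor out of the nucleus, had 70.2 and 79.9 CPM in light, 41.9 and 36.9 CPM in moderate and 12.4 and 15.7 CPM in heavy polysomes (log2 change -2.42 ± 0.30, adjusted p = 4.7e-14). ZNF32 had 36.1 and 25 CPM in light and 6 and 5.6 CPM in heavy (log2 change -2.37 ± 0.31, adjusted p = 2.14e-13). Both fell stepwise from light through moderate to heavy in each culture. ZNF511, ZNF576, ZNF706, ZNF580, ZNF428 and ZNF524 were also lower in heavy, with log2 changes from -2.31 for ZNF511 to -1.78 for ZNF524. ZNF706 has the shortest coding sequence of all members (228 nt), and the coding sequences of these 8 genes run up to 819 nt, against a median of 1755 nt over the members. 64.8% of the coding 50-mers of ZNF511 and 31.8% of those of ZNF706 occur in another gene, and those 2 counts are uncertain.

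Coding length went with the position of the members, and their medians were lower than those of other genes of their length. Among the 17 members of at most 1000 nt the median log2 heavy to light ratio was -1.56, and it was -0.47 in the 31 of 1000 to 1500 nt, -0.21 in the 52 of 1500 to 2000 nt, 0.04 in the 35 of 2000 to 3000 nt and 0.39 in the 22 longer ones. All genes of the same classes had medians of -1.12, 0.21, 0.68, 1.03 and 1.38. Spearman's rho between coding length and this ratio was 0.47 across the 157 coding members and 0.64 across 12678 genes, which share libraries and are not replicates.

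**Figure D1:**
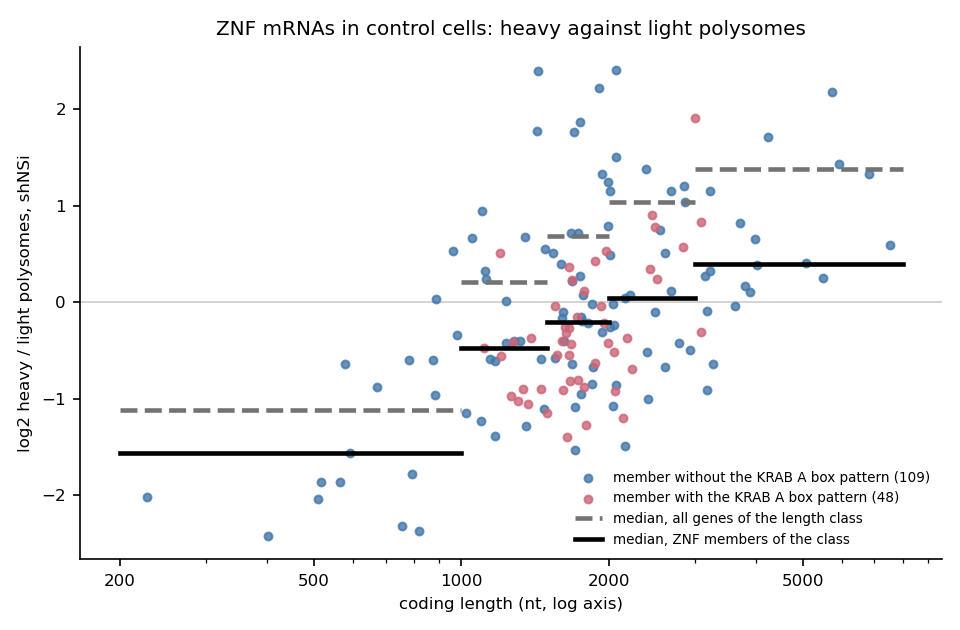
Log2 heavy to light ratio of each ZNF member in shNSi cells (vertical axis) against its coding length in nt (horizontal log axis), with medians of the members (solid) and of all genes (dashed) in 5 length classes. The members' medians run from -1.56 to 0.39 and those of all genes from -1.12 to 1.38, and members with the KRAB A box pattern lie mostly between 1000 and 3000 nt.

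Few KRAB pattern members were called higher in heavy than in light polysomes. Of the 48, 16 were lower (33.3%, beside 32.8% of all genes) and 4 higher (8.33%, beside 31.7%), with a median log2 ratio of -0.41, against 30 lower and 28 higher and a median of -0.04 among the 109 coding members without the pattern. By length class the KRAB pattern members had medians of -0.90 (11 members, 1000 to 1500 nt), -0.36 (24 members, 1500 to 2000 nt) and -0.07 (10 members, 2000 to 3000 nt). Members without the pattern had -0.40, -0.06 and 0.04 in those classes. On chromosome 19, 24 of 55 members were lower and 3 higher (median -0.56), and elsewhere 24 of 104 were lower and 29 higher (median 0.05). The difference between these subgroups was not tested.

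The moderate pool, sequenced in shNSi only, was compared with each neighbor. Against heavy polysomes 43 members differed, 29 lower and 14 higher in moderate (16 lower and 29 higher with library size in place of TMM), with 36.2% of all genes called (21.5% lower and 14.7% higher). ZNF143 was lowest (9.21 and 21 CPM in moderate, 54.5 and 66.4 CPM in heavy, log2 change -2.08 ± 0.30), followed by ZNF106, ZNF609 and ZNF185. ZNF593 was highest (41.9 and 36.9 CPM against 12.4 and 15.7 CPM, log2 change 1.5 ± 0.30), followed by ZNF524, ZNF580 and ZNF428. Against light polysomes 36 members differed, 30 lower and 6 higher in moderate, with 28.5% of all genes called (15.6% lower and 12.9% higher). The members highest in moderate by that measure were ZNF207 (log2 change 1.29 ± 0.33), the KRAB pattern members ZNF316 (1.0 ± 0.29) and ZNF268 (0.83 ± 0.29), and ZNF770 (0.94 ± 0.29). The lowest were the pseudogene ZNF271P (60.4 and 33.6 CPM in light, 16.2 and 14.9 CPM in moderate, log2 change -1.57 ± 0.29), ZNF32, ZNF511 and ZNF576. The 43 and 36 calls numbered 21 and 6 without a term for the culture, 17 and 15 without shNSi replicate 1, and 31 and 12 without shNSi replicate 2. The heavy against light calls were 50 without shNSi replicate 1 and 61 without shNSi replicate 2.

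ZNF mRNAs differed between shDAP5 and shNSi heavy polysomes in both directions, and those with the shortest coding sequences lay on the higher side. Of the 160 members 32 differed between shDAP5 and shNSi heavy polysomes, 23 higher and 9 lower in shDAP5, by edgeR's quasi-likelihood test. This is 20% of the members, where 30.9% of the 14270 genes tested were called (14.2% higher and 16.7% lower). The members' median log2 change was 0.17 and that of all genes 0.09, and the members' changes ran from -1.31 to 1.96. Both shDAP5 cultures lay above both shNSi cultures for 74 members and below for 28, where 36.4% and 30.9% of all genes did so.

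The 23 members that rose were led by members with short coding sequences. ZNF580 had 9.14 and 8.91 CPM in the shNSi cultures and 29.1 and 41 CPM in the shDAP5 cultures (here normalized over the 4 heavy libraries; log2 change 1.96 ± 0.35, adjusted p = 3.38e-06). ZNF581, its neighbor on chromosome 19, had 11.9 and 9.51 CPM and 24.9 and 37.3 CPM (log2 change 1.54 ± 0.34, adjusted p = 0.000223). The shDAP5 cultures lay above both shNSi cultures for each. ZNF32 had 5.36 and 4.72 CPM in shNSi and 14.7 and 14.6 CPM in shDAP5 (log2 change 1.53 ± 0.37, adjusted p = 0.000581). ZNF524 had 6.16 and 5.98 CPM and 13.7 and 18.8 CPM (log2 change 1.42 ± 0.36, adjusted p = 0.00119). ZNF593, the 60S export factor, had 11.1 and 13.3 CPM and 23.6 and 41.1 CPM (log2 change 1.41 ± 0.34, adjusted p = 0.000681). ZNF428, ZNF488 and ZNF706 completed the 8 highest, with log2 changes of 1.42 ± 0.34, 1.21 ± 0.35 and 1.17 ± 0.33. Of the 32 members called, 31 had no overlap between the lines. The exception was ZNF414, chosen here after its values were seen, with 8.76 and 4.64 CPM in shNSi and 8.65 and 16.3 CPM in shDAP5.

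The 9 members that fell have differing roles. ZNF106 fell from 91.7 and 116 CPM to 53.3 and 30.7 CPM (log2 change -1.31 ± 0.33, adjusted p = 0.00114). ZNF638, an RNA-binding regulator of splicing that also silences unintegrated retroviral DNA, fell from 59.7 and 111 CPM to 41 and 28.7 CPM (log2 change -1.29 ± 0.33, adjusted p = 0.00151). ZNF326, the DBIRD subunit, fell from 74.8 and 107 CPM to 45 and 38.5 CPM (log2 change -1.12 ± 0.33, adjusted p = 0.00522). No shDAP5 value of these 3 genes reached an shNSi value, and shNSi replicate 2 was the higher of the control cultures in each. ZNF622 had 82.6 and 88 CPM in shNSi and 37.3 and 49 CPM in shDAP5 (log2 change -0.98 ± 0.33, adjusted p = 0.0147). ZNF143 had 48.7 and 55.9 CPM and 28.5 and 25.1 CPM (log2 change -0.97 ± 0.33, adjusted p = 0.0173). ZNF512, ZNF185 and ZNF609 followed at -0.95 ± 0.33, -0.95 ± 0.34 and -0.91 ± 0.33. The ninth was ZNF281, a GC-box factor linked to epithelial-mesenchymal transition, with 56.1 and 47.7 CPM in shNSi and 35.9 and 21.8 CPM in shDAP5 (log2 change -0.85 ± 0.33, adjusted p = 0.0394).

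**Figure D2:**
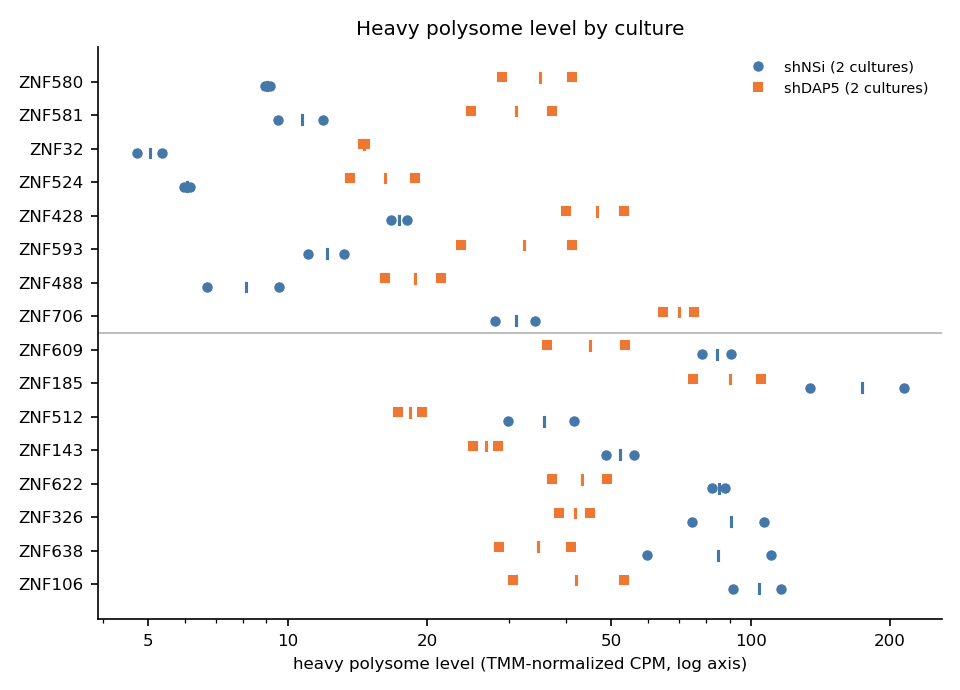
Heavy polysome level (TMM-normalized CPM, log axis) of the 8 members that rose most and the 8 that fell most in shDAP5, with 1 point per culture (circles shNSi, squares shDAP5, 2 cultures each) and a tick at the mean. The shDAP5 points lie above both shNSi points in the upper 8 genes and below both in the lower 8.

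Of the 9 members that fell 8 had few fingers. Across the 157 coding members, though, Spearman's rho between finger number and the heavy change was 0.03. Of the 32 members with 0 to 3 matches to the C2H2 pattern, 8 fell and 7 rose, of the 64 with 4 to 9 matches 1 fell and 8 rose, and of the 61 with 10 or more none fell and 8 rose. The shares that rose were 21.9%, 12.5% and 13.1%, beside 14.2% of all genes, and those that fell 25%, 1.56% and 0%, beside 16.7%. By length, 11 of the 17 members of at most 1000 nt rose and none had a log2 change below 0, in a class where all genes had a median of 0.70. The medians were 0.94, 0.33, 0.20, -0.03 and -0.39 from the shortest to the longest class, where all genes had 0.70, 0.07, -0.27, -0.56 and -0.88. The members' median was the higher one in each class, with 3 of 22 members over 3000 nt lower and 1 higher. Spearman's rho between coding length and the heavy change was -0.55 across 157 members and -0.65 across 12139 genes, as a description.

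**Figure D3:**
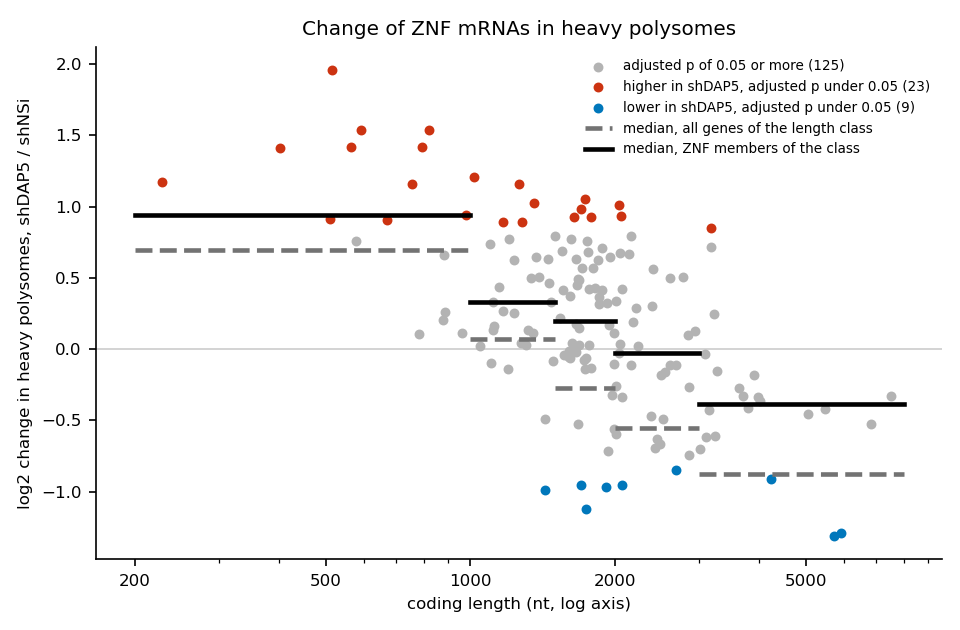
Log2 change of each ZNF member in heavy polysomes, shDAP5 against shNSi (vertical axis), against coding length in nt (horizontal log axis), with medians of members (solid) and of all genes (dashed) in 5 length classes. Members of at most 1000 nt have a median of 0.94 and those over 3000 nt a median of -0.39, and the dashed medians run from 0.70 to -0.88.

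The heavy calls rested on which pools and cultures were compared. With the shNSi moderate pool as control in place of shNSi heavy no member was called by edgeR (4 at an unadjusted p under 0.05), 50 of all genes were called, and 8 of the 16 members drawn above changed sign. With shNSi heavy and moderate summed 1 member, ZNF580, was called. Without shDAP5 replicate 2 no member was called (31 at an unadjusted p under 0.05), and 2 genes of the whole table. The members called numbered 17 without shNSi replicate 1, 12 without shNSi replicate 2 and 19 without shDAP5 replicate 1. With offsets for coding length 1 of the 9 members that fell (ZNF622) and 12 of the 23 that rose were still called. In all 27 were then higher and 1 lower, with 12% of all 14270 genes called. The medians were 0.46 over the members and 0.07 over all genes. With library size in place of TMM 33 were higher and 1 lower, with 25.5% of all genes called. That scaling moved the median of all genes from 0.09 to 0.34 on the log2 scale.

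Lists of ZNF genes with a known role held 33 symbols, of which 29 were members (ZNF410, ZNF518A, ZNF91 and ZNF350 were under the minimum). In shNSi 14 of the 29 were higher and 2 lower in heavy than in light polysomes, beside 31.7% and 32.8% of all genes. Between the lines 5 of the 29 fell in shDAP5 heavy polysomes, 1 rose and 23 did not pass the test, beside 16.7% of all genes lower and 14.2% higher, so the share that fell is near that of all genes. The ribosome list was split: ZNF622 fell, ZNF593 rose, and ZNF598, the ubiquitin ligase that marks collided ribosomes, had 68.8 and 75 CPM in shNSi and 59.1 and 69.5 CPM in shDAP5 (log2 change -0.16 ± 0.32, adjusted p = 0.736). Among 4 RNA-binding and splicing genes ZNF638 and ZNF326 fell, ZNF830 was at 0.14 ± 0.35, and ZNF346, which binds double-stranded RNA, was at 0.66 ± 0.34. ZNF207 of the spindle had 259 and 218 CPM and 156 and 184 CPM, which did not overlap but did not pass the test (log2 change -0.49 ± 0.35, adjusted p = 0.283).

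Of 9 cancer-linked and general transcription factors ZNF143 and ZNF281 fell. ZNF217, a breast cancer oncogene that is often amplified, had 50 and 42.6 CPM in shNSi and 44.9 and 24 CPM in shDAP5 (log2 change -0.43 ± 0.33, adjusted p = 0.328), with overlapping lines. ZNF703, amplified in luminal breast cancer, had 32.9 and 38.5 CPM and 46.7 and 48.8 CPM (log2 change 0.42 ± 0.33, adjusted p = 0.332). ZNF148, ZNF384, ZNF24, ZNF131 and ZNF146 lay between -0.47 and 0.21. The sign of all these 5 genes, and of ZNF217, changed under at least 1 other setting, and ZNF143 and ZNF281 turned to 0.96 and 0.33 with the shNSi moderate pool as control.

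None of the 7 chromatin complex members passed the test in heavy polysomes. ZNF592, ZNF687 and ZNF532, which form a complex with ZMYND8, had log2 changes of -0.41 ± 0.33, -0.33 ± 0.33 and -0.18 ± 0.34. ZNF644 and ZNF518B, partners of the H3K9 methyltransferases G9a and GLP, had -0.34 ± 0.33 and 0.24 ± 0.34, ZNF335 of the MLL complex had -0.36 ± 0.33, and ZNF451, a SUMO ligase, had -0.53 ± 0.33. Of 7 changes 6 were below 0, but all 6 turned above 0 with the shNSi moderate pool as control, and 5 of them with offsets for coding length. None of the 5 KRAB repressors passed either, and their values ran from -0.62 ± 0.34 for ZNF445 to 0.65 ± 0.33 for ZNF274, which brings SETDB1 to the 3′ ends of ZNF genes. ZNF274 and ZNF518B passed with offsets for coding length (log2 changes 1.03 and 0.91).

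**Figure D4:**
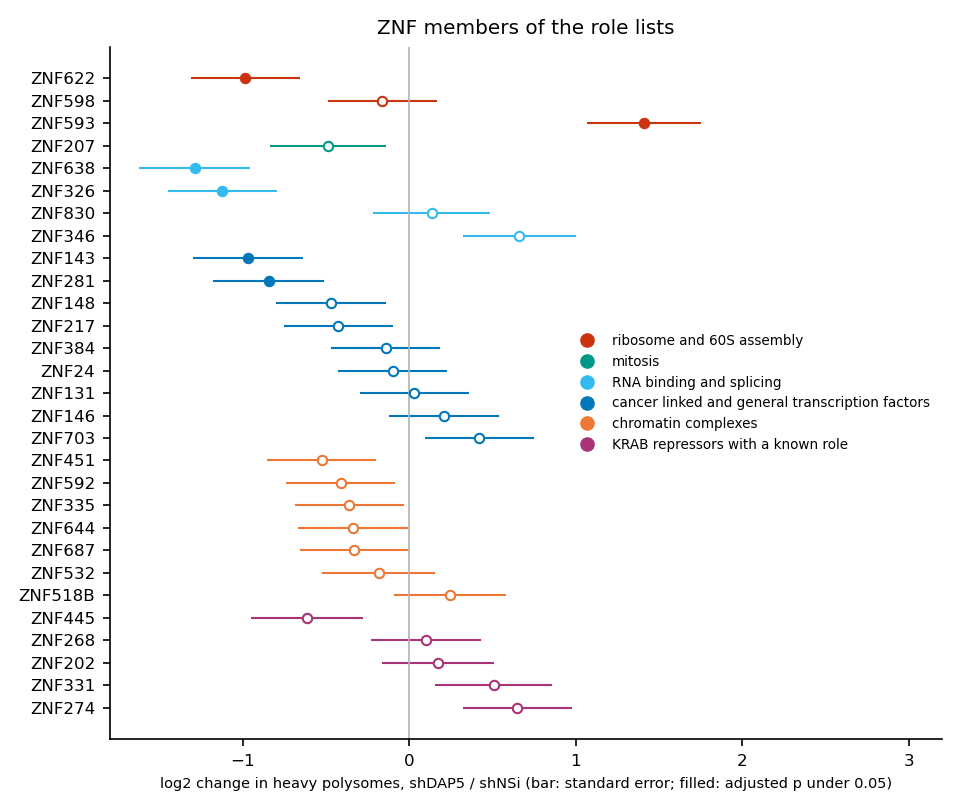
Log2 change in heavy polysomes, shDAP5 against shNSi, of the 29 members of 6 role lists (horizontal axis), with bars of 1 standard error and filled points where the adjusted p was under 0.05. The filled points are ZNF622, ZNF638, ZNF326, ZNF143 and ZNF281 on the lower side and ZNF593 on the higher side.

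In light polysomes no member was called by edgeR's test (11 at an unadjusted p under 0.05), and 0% of 15529 genes were called (8.56% at that unadjusted p). EIF4G2, the shRNA target, was not called either, with 1743 and 1759 CPM in shNSi and 634 and 757 CPM in shDAP5 (log2 change -1.33 ± 0.32, adjusted p = 0.43). Its heavy polysome change was -0.86 ± 0.38 (adjusted p = 0.069). A lack of calls here thus does not show a lack of change. DESeq2 called 1 member and 105 genes. The median log2 change was 0.18 over the members and -0.01 over all genes. Both shDAP5 cultures lay above both shNSi cultures for 67 members and below for 16, where 21.3% and 20.2% of all genes did so. ZNF518B had 20.2 and 15.3 CPM in shNSi light and 43.7 and 37.7 CPM in shDAP5 light (log2 change 1.20 ± 0.28, adjusted p = 0.43). ZNF331, an imprinted KRAB gene, had 17.9 and 14.2 CPM and 32.6 and 33.3 CPM (log2 change 1.04 ± 0.27, adjusted p = 0.433). The shDAP5 cultures were higher without overlap in both genes, and the test over all genes did not call them. ZNF488 followed at 0.88 ± 0.26, and the lowest values were those of ZNF503 (-0.86 ± 0.33), ZNF622 (-0.73 ± 0.31) and ZNF696 (-0.58 ± 0.33). With the shNSi moderate pool as control 31 members were called in light polysomes, beside 25.5% of all 15431 genes. With shNSi light and moderate summed no member was called (38 at an unadjusted p under 0.05). Calls also changed without shNSi replicate 1, where the median log2 change was 0.25 over the members and 0.03 over all genes.

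In total mRNA, which chose the members, the median log2 change was 0.16 over the members and 0.01 over all 14992 genes. For 62 members both shDAP5 cultures lay above both shNSi cultures and for 12 below, where 21.9% and 20.4% of all genes did so. ZNF488 had the largest value, with 13.1 and 16.5 CPM in shNSi and 30.1 and 25.8 CPM in shDAP5 (log2 change 0.92). ZNF32 and ZNF580 had log2 changes of 0.74 and 0.70, and ZNF622 had the lowest of all members at -0.48. The total mRNA log2 changes of the other members that fell in heavy polysomes were ZNF106 -0.10, ZNF638 -0.21, ZNF326 -0.05, ZNF143 0.26, ZNF512 -0.26, ZNF185 -0.22, ZNF609 -0.05 and ZNF281 0.13, above 0 for ZNF143 and ZNF281 alone. Those of the other members among the 8 that rose most were ZNF581 0.21, ZNF524 0.23, ZNF428 0.11, ZNF593 -0.11 and ZNF706 0.20.

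Whether an mRNA changed its place in the gradient was asked with the heavy to light ratio, tested within cultures in 1 fit of the 10 polysome libraries. The ratio differed between shDAP5 and shNSi for 16 members, 11 lower and 5 higher in shDAP5, which is 10% of the members beside 14% of 16051 genes (9.41% lower and 4.61% higher). With library size in place of TMM the split turned over, to 4 lower and 8 higher. The median difference was -0.07 over the members and 0.05 over all genes, and the members' median turned to 0.17 with library size in place of TMM, where all genes had 0.29, and to 0.10 without shDAP5 replicate 2, where all genes had 0.09. This comparison uses the same heavy and light libraries as those above, so its values are not independent of them.

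Of the 11 lower 6 were among the 22 members over 3000 nt. ZNF326 had log2 heavy to light ratios of 1.61 and 2.19 in the shNSi cultures and 0.47 and 0.13 in the shDAP5 cultures (difference -1.56 ± 0.41, adjusted p = 0.00361). ZNF106 had ratios of 1.74 and 2.64 and 1.06 and 0.19 (difference -1.55 ± 0.41, adjusted p = 0.00412). ZNF638 had 0.89 and 1.95 and 0.16 and -0.29 (difference -1.5 ± 0.41, adjusted p = 0.00547). These mRNAs leaned to heavy polysomes in control cells and had lower ratios in both shDAP5 cultures than in either shNSi culture. ZNF143 had 2.14 and 2.29 and 0.96 and 0.64 (difference -1.41 ± 0.41, adjusted p = 0.00877). ZNF217, with ratios of -0.01 and 0.53 in shNSi and -0.48 and -1.41 in shDAP5, had a difference of -1.21 ± 0.41 although its heavy level alone did not pass the test (adjusted p = 0.0294). ZNF451, ZNF644 and ZNF518B, 3 of the 7 chromatin complex members, were also lower at -1.26 ± 0.41, -1.20 ± 0.41 and -1.10 ± 0.40, and all 7 of that list had values below 0 (median -0.89). Of these 7 genes 6 have coding sequences over 3000 nt, a class in which all genes had a median difference of -1.06, and the part of length was not tested.

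The 5 higher were all among the 17 members of at most 1000 nt, and lay toward light polysomes in control cells. ZNF593 had log2 heavy to light ratios of -2.50 and -2.34 in shNSi and -1.26 and -0.10 in shDAP5 (difference 1.74 ± 0.41, adjusted p = 0.00119). ZNF428 had -1.72 and -1.98 and -0.67 and 0.30 (difference 1.68 ± 0.41, adjusted p = 0.00172). ZNF580 had -2.19 and -1.58 and -1.05 and 0.32 (difference 1.5 ± 0.41, adjusted p = 0.00602). In each of these genes shDAP5 replicate 2 had the higher ratio of the shDAP5 cultures. ZNF524 and ZNF581 were at 1.37 ± 0.41 and 1.31 ± 0.41, and their heavy polysome changes alone were 1.42 ± 0.36 and 1.54 ± 0.34. By length the median difference was 0.69 in members of at most 1000 nt and -0.78 in those over 3000 nt, beside 0.65 and -1.06 over all genes. No member with the KRAB A box pattern or with 10 or more fingers was called for this ratio, where 14% of all genes were called. At an unadjusted p under 0.05 there were 5 of 48 and 7 of 61, beside 35 of all 160 members.

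**Figure D5:**
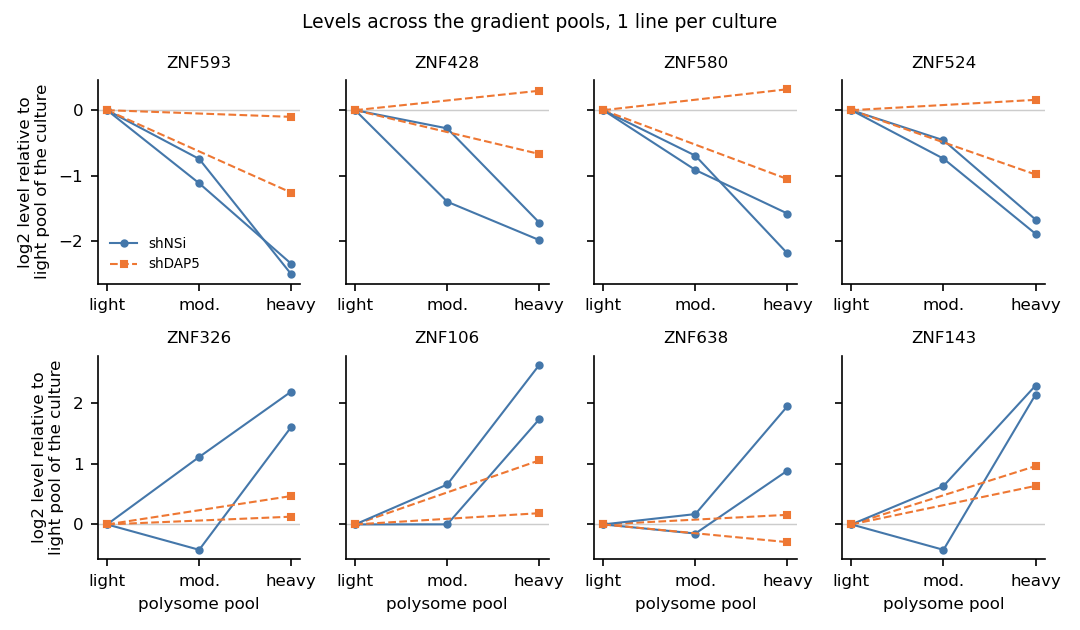
Log2 level of 8 members in each polysome pool relative to the light pool of the same culture, with 1 line per culture (solid shNSi with light, moderate and heavy; dashed shDAP5 with light and heavy). In the upper 4 genes the shNSi lines end lower than the shDAP5 lines, and in the lower 4 they end higher.

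Within shDAP5 cells 61 members differed between heavy and light polysomes, 45 lower and 16 higher in heavy, with 44.1% of all genes called (22.1% lower and 22% higher), and the median log2 ratio was -0.30 over the members and -0.03 over all genes. ZNF207 (55.1 and 55.8 CPM in light, 167 and 199 CPM in heavy, log2 change 1.72 ± 0.33), ZNF185 (1.41 ± 0.30), ZNF316 (1.37 ± 0.29) and ZNF503 (1.35 ± 0.30) were highest. ZNF271P (72.5 and 82 CPM in light, 22.1 and 16.7 CPM in heavy, log2 change -2.0 ± 0.30), ZNF511, ZNF32 and ZNF576 were lowest. By length the members had medians of -0.42, -0.37, -0.26, -0.18 and -0.25 from the shortest to the longest class, where all genes had -0.39, 0.35, 0.40, 0.33 and 0.25. The members' medians in control cells, given above, ran from -1.56 to 0.39. The 61 calls numbered 24 without shDAP5 replicate 1 and 14 without shDAP5 replicate 2.

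The number of ratio calls moved with the pools and cultures compared. With shNSi light and moderate summed in place of light 22 members were called, 18 lower and 4 higher, DESeq2 called 21, and 21 were called without shNSi replicate 1. No member was called without shDAP5 replicate 2 (7 at an unadjusted p under 0.05; 6 were called without shNSi replicate 2), without a term for the culture (22 at that p), or with shNSi heavy and moderate summed in place of heavy (7 at that p), all by edgeR. Since the shDAP5 light libraries carry the moderate code, a difference in where the pools were cut and an effect of the shRNA cannot be told apart from these labels.

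The partners of the KRAB family were read from a list of 17 tested genes of the corepressor and H3K9 methylation machinery. In heavy polysomes 7 of the 17 fell and 1 rose, with a median of -0.63, beside 16.7% and 14.2% of all genes and their median of 0.09. TRIM28, the KRAB corepressor, had 1297 and 2089 CPM in shNSi and 765 and 926 CPM in shDAP5 (log2 change -1.0 ± 0.38, adjusted p = 0.0344). CHD4, the NuRD remodeler, had 202 and 615 CPM and 103 and 77 CPM (log2 change -2.18 ± 0.38, adjusted p = 6.09e-06). ATRX, ATF7IP, MORC2, MPHOSPH8 and SMARCAD1 also fell, with log2 changes from -1.26 to -0.98, and CBX3, an HP1 protein, rose (0.87 ± 0.36). In shNSi the 7 that fell were lower in moderate than in heavy polysomes, with log2 changes from -2.61 to -1.60. Each was larger than the fall of that gene. CBX3 was higher in moderate by 1.04, also more than its rise. With the shNSi moderate pool as control 50 of all 14539 genes were called. SETDB1, the methyltransferase that TRIM28 recruits, was at -0.63 ± 0.33 (adjusted p = 0.128). Of the KRAB family itself none of the 48 pattern members fell and 5 rose (ZNF584, ZNF211, ZNF7, ZNF416 and ZNF71, named after their values were seen), with a median of 0.26. The 10.4% that rose is below the 14.2% of all genes. The corepressor genes had a median coding length of 2580 nt, and all genes of 2000 to 3000 nt had a median heavy change of -0.56. The KRAB pattern members had a median coding length of 1705.5 nt, and all genes of 1500 to 2000 nt had a median heavy change of -0.27. The part of length was not tested.

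Genes of other C2H2 families (ZBTB, ZSCAN, ZKSCAN, ZFP, ZIK and ZIM names) with the same minimum numbered 38, and 3 fell and 2 rose in shDAP5 heavy polysomes (median 0.10), which is 7.89% and 5.26% beside 16.7% and 14.2% of all genes. ZBTB40, ZBTB11 and ZBTB33 fell (-1.40 ± 0.34, -0.98 ± 0.33 and -0.91 ± 0.33), and ZBTB45 and ZFP36, the latter a CCCH-type mRNA decay factor despite its name, rose (0.96 ± 0.33 and 0.93 ± 0.34). In shNSi the log2 changes of moderate against heavy polysomes were -2.09, -1.68 and -1.34 for the genes that fell, each larger than the fall. They were 0.35 for ZBTB45 and 0.33 for ZFP36, smaller than the rises. By shared sequence, the 135 coding members with at most 10% of their coding 50-mers in another gene had 8 lower and 20 higher calls in heavy polysomes (median 0.19), and the 22 others 1 lower and 3 higher (median 0.05). Of the ZNF symbols under the minimum 282 could be tested in heavy polysomes, with lower counts, and 15 were called (2 lower and 13 higher, median 0.31), which is 5.32% beside 30.9% of all genes.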

How the data were processed

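RNA was from total lysate and pooled polysome fractions of MDA-MB-231 cells. The authors deposited raw counts per gene symbol, 1 column per library, with no normalization. The submitters' processing notes name STAR 2.6.0a, limma and hg19, without their roles. Members and lists were chosen with earlier results of these data known.

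Counts were tested with edgeR 4.0.16 in R 4.3.3 (TMM, filterByExpr, robust quasi-likelihood test, Benjamini-Hochberg adjustment over all genes, threshold 0.05). Each fraction was fitted on its 4 libraries, and gradient comparisons on the 10 polysome libraries with a term for each of the 4 cultures (3 residual degrees of freedom). Errors are standard errors of log2 changes. Levels are TMM-normalized CPM, and ratios add 0.01 CPM. The steps were tested on simulated data. Alternatives were DESeq2 1.42.0, limma 3.58.1, library size without TMM, no filter, a minimum of 1000 counts, coding length offsets, other control pools, a replicate block and each culture left out.

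Same-numbered shNSi and shDAP5 cultures were not treated as pairs: their deviations correlated at r = 0.04 in light and 0.05 in heavy over 16235 genes. Genes were named by rule: role lists, the 8 highest and lowest calls in heavy polysomes and in shNSi heavy against light with no overlap, and 4 each (3 where none passed) elsewhere. Coding lengths, fingers (C2H2 spacing) and the KRAB A box pattern came from GENCODE 29 on GRCh38, matched by symbol. No hg19 genome was used here.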

Additional observations from a re-analysis of the deposited data

Results flagged for a closer look

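The heavy to light ratio changed between shNSi and shDAP5 for 16 of the 160 members by the test of the difference itself (edgeR, adjusted p under 0.05). The same test called 14% of all 16051 genes. The genes named from it were ZNF326 (-1.56), ZNF106 (-1.55), ZNF638 (-1.5) and ZNF143 (-1.41), lower in shDAP5, and ZNF593 (1.74), ZNF428 (1.68), ZNF580 (1.5) and ZNF524 (1.37), higher in shDAP5, as differences of log2 ratios. No group held enough cultures to look for single outlying samples.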

How the results depend on the processing

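The 2 cultures per line limit every call. The 32 heavy polysome calls became 21 without the filter, 0 with the shNSi moderate pool as control, 1 with heavy and moderate summed, and 0 to 19 with 1 culture left out. DESeq2, limma, library size and coding length offsets gave 27 to 34. The 0 light calls became 1 with DESeq2, 1 without the filter, 31 against the moderate pool (beside 25.5% of all genes) and 0 with light and moderate summed. Light calls also changed with 1 culture left out, where the members' median log2 change ran from 0.15 to 0.25. The 16 ratio calls became 0 with heavy and moderate summed, 22 with light and moderate summed, 21 with DESeq2, and 0 to 21 with 1 culture left out (6 without shNSi replicate 2). With a culture left out, heavy against light gave 50 to 61 in shNSi and 14 to 24 in shDAP5, moderate against heavy 17 to 31, and moderate against light 12 to 15, with 20 when the filter was left out. A minimum of 1000 counts left 37 of the 160 members, so its counts are over a shorter list: 10 of 37 in heavy polysomes, 7 for the ratio, 22 for heavy against light in shNSi and 14 in shDAP5, 16 for moderate against heavy and 9 for moderate against light. Library size in place of TMM moved the heavy against light split in shNSi from 49 lower and 32 higher to 84 and 19, that of moderate against heavy from 29 and 14 to 16 and 29, and that in shDAP5 from 45 and 16 to 58 and 6. For the ratio it moved 11 lower and 5 higher to 4 and 8. The medians of all genes moved as well, from -0.15 to -0.60, 0.15 to 0.45, -0.03 to -0.24 and 0.05 to 0.29 in that order.

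A replicate block on the shared culture numbers gave 35 calls in heavy and 1 in light polysomes. Without the block on cultures in the gradient fit, the calls were 0 for the ratio, 67 for heavy against light, 21 for moderate against heavy and 6 for moderate against light in shNSi, and 28 for heavy against light in shDAP5. In the gradient fit no coding length offset was run, because 78.99% of its genes had a coding length, under the 80% required.

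Over 94 gene and comparison pairs, 872 alternative values were computed. Direction and side of the threshold held in 666, 121 lost the call, 21 gained one and 64 turned sign, all in heavy polysomes, and the cause was not tested. With the shNSi moderate pool as control these were ZNF106 0.49, ZNF638 0.11, ZNF326 0.18, ZNF143 0.96, ZNF512 0.050, ZNF185 0.58, ZNF609 0.62, ZNF593 -0.16, ZNF598 0.020, ZNF207 0.43, ZNF346 -0.18, ZNF830 -0.082, ZNF217 0.15, ZNF148 0.38, ZNF281 0.33, ZNF384 0.27, ZNF24 0.18, ZNF146 -0.20, ZNF592 0.19, ZNF687 0.62, ZNF532 0.49, ZNF644 0.35, ZNF335 0.43, ZNF451 0.31, ZNF445 0.21 and ZNF268 -0.22. With coding length offsets they were ZNF706 -0.019, ZNF598 0.42, ZNF830 -0.015, ZNF217 0.21, ZNF148 0.035, ZNF384 0.14, ZNF146 -0.17, ZNF592 0.36, ZNF687 0.42, ZNF532 0.56, ZNF644 0.40, ZNF335 0.47 and ZNF445 0.055. With heavy and moderate summed they were ZNF384 0.068, ZNF24 0.048, ZNF146 -0.031, ZNF687 0.11, ZNF532 0.14, ZNF335 0.014 and ZNF268 -0.084. With library size they were ZNF598 0.078, ZNF384 0.097, ZNF24 0.15 and ZNF532 0.087, with limma ZNF384 0.052 and ZNF24 0.037, with DESeq2 ZNF131 -0.050 and without the filter ZNF131 -0.055. With 1 culture left out at a time the ranges were ZNF24 -0.35 to 0.056, ZNF146 -0.15 to 0.44, ZNF131 -0.23 to 0.19, ZNF532 -0.74 to 0.16, ZNF644 -0.92 to 0.030, ZNF518B -0.19 to 0.53, ZNF268 -0.059 to 0.18 and ZNF202 -0.045 to 0.26.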
